A study of Triticum aestivum with 32 samples.

Results

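FT1, also called VRN3, is the florigen gene of wheat, and its 3 copies on chromosomes 7A, 7B and 7D were followed in flag leaves under heat, drought and salt. The members were taken by identifier as TraesCS7A02G115400, TraesCS7B02G013100 and TraesCS7D02G111600, which are 3 of the 269428 gene models in the deposited table. Each has 1 transcript in the table, and all 3 passed the filter of at least 1 TPM in at least 4 libraries that left 60684 gene models for testing. TPM is a transcript's estimated reads divided by its length and scaled to the same total in each library, so levels of different copies can be set side by side.

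FT1 encodes a small mobile protein that is made in leaves, mainly under long days, and travels in the phloem to the shoot apex. There it acts with a bZIP transcription factor and switches on meristem identity genes such as VRN1, which starts the change from leaves to spike. Bread wheat carries homoeologues, which are the corresponding copies of a gene on its A, B and D subgenomes. Known promoter alleles of the B copy raise its transcript and hasten heading. The flag leaf is the last leaf to form and feeds the filling grain, and here it was collected during grain filling, long after floral transition.

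All plants were of 1 cultivar, the red spring wheat Stettler, kept in greenhouse pots with 16 h of light, and each treatment was given to 8 pots from week 5 after sowing, at Feekes stage 8. Control pots had daytime and night temperatures of 24 and 18 °C and tap water to 100% of field capacity. Drought meant watering to 40% of field capacity, salt meant NaCl in steps of 20, 40 and 80 mM, and heat meant 30 °C for part of the day in another greenhouse. The 3 stresses were given singly, in all pairs and together, which with the control makes 8 groups of 4 libraries, called independent biological replicates in the series text. Heat and greenhouse cannot be told apart wherever heat is compared.

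The number of gene models at 1 TPM or above ran from 44106 to 53532 by library. The 100 gene models of highest mean level held 13.6% to 36.1% of all TPM, and this share was highest in heat replicate 1, control replicate 3, drought replicate 3 and heat replicate 3. Salt replicate 3 stood apart, with 21.6% of its TPM in low confidence gene models. No gene names come with the identifiers, so the labelled tissue was not checked against marker genes, and other genes of the flowering pathway are not described. Fewer cells that make a transcript and less of it per cell cannot be told apart in these whole-leaf samples.

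The B copy carried most of the FT1 transcript. Over the 32 libraries the 7B copy averaged 54.1 ± 35.1 TPM (SD, n = 32), the 7A copy 17.7 ± 11.3 TPM and the 7D copy 6.96 ± 5.78 TPM. The 7B copy stood above 96.2% of the gene models tested by mean level, the 7A copy above 86.5% and the 7D copy above 68% of them. In every one of the 32 libraries the order was 7B, then 7A, then 7D.

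On the log2(TPM + 1) scale the 7A copy lay 1.54 below the 7B copy (mean log2 ratio -1.54, SD 0.46, n = 32), and the 7D copy lay below both, with mean log2 ratios of 1.35 for 7A over 7D and 2.88 for 7B over 7D. All 3 differences had the smallest p that 100000 sign flips can give (permutation test, two-sided, p = 1e-05, adjusted p = 1e-05 over 3 pairs). The authors' RSEM run divides reads that fit several copies among them, so the split between homoeologues is an estimate.

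**Figure D1:**
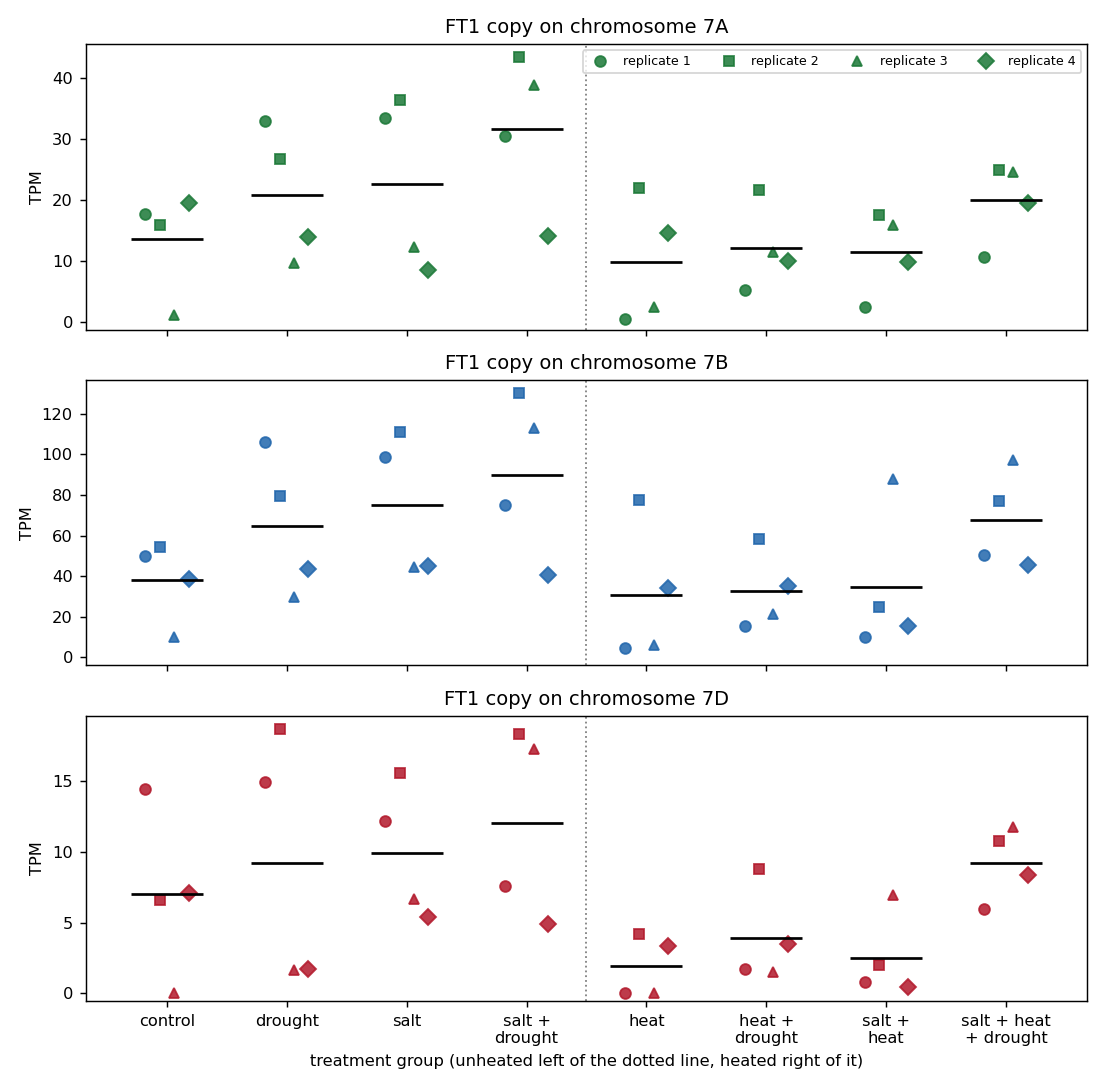
Level of each FT1 copy in TPM (vertical axes, different ranges) in the 32 libraries of the 8 treatment groups, with 1 symbol per library by replicate number and a black line at the group mean. The 4 libraries of a group are widely scattered, from 4.76 to 77.5 TPM for the 7B copy under heat alone, and the ranges of the groups overlap for the 7A and 7B copies.

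The 7B copy set the summed level. In replicates 1 to 4 it stood at 50.1, 54.5, 10.1 and 38.5 TPM in control and at 4.76, 77.5, 6.01 and 34.2 TPM under heat alone. Heat replicates 1 and 3 were the lowest of all 32 libraries, while heat replicate 2 lay above every control library. It stood at 106, 79.4, 29.9 and 43.4 TPM in drought and at 15.6, 58.4, 21.4 and 35.2 TPM in heat plus drought. In salt it stood at 98.7, 111, 44.6 and 44.95 TPM, and in salt plus heat at 9.84, 25.0, 88.05 and 15.5 TPM. Salt plus heat replicate 3 was thus the only library of its group within the range seen with salt alone. In salt plus drought the values were 74.9, 130.5, 113 and 40.5 TPM, and with all 3 stresses 50.6, 76.9, 97.25 and 45.3 TPM. Salt plus drought had the highest group mean, 89.7 ± 40.2 TPM (SD, n = 4), and heat alone the lowest, 30.6 ± 34.1 TPM (SD, n = 4).

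The 7A copy followed the same libraries. It stood at 17.7, 15.85, 1.09 and 19.5 TPM in control and at 0.4, 21.9, 2.48 and 14.6 TPM under heat in replicates 1 to 4. It was at 33, 26.7, 9.56 and 13.9 TPM in drought and at 5.15, 21.7, 11.5 and 10.04 TPM in heat plus drought. Control replicate 3 and heat replicates 1 and 3 were low, as for the 7B copy. In salt it stood at 33.5, 36.45, 12.3 and 8.43 TPM and in salt plus heat at 2.4, 17.5, 15.9 and 9.85 TPM. In salt plus drought it stood at 30.5, 43.5, 38.8 and 14.04 TPM and with all 3 stresses at 10.7, 24.9, 24.6 and 19.5 TPM. The 3 highest values of the 7A copy were those of salt plus drought replicates 2 and 3 and salt replicate 2.

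The 7D copy was the scarcest and came close to 0 in some libraries. It stood at 14.4, 6.59, 0.05 and 7.09 TPM in control and at 0, 4.19, 0.06 and 3.36 TPM under heat. In drought it stood at 14.9, 18.7, 1.66 and 1.7 TPM and in heat plus drought at 1.74, 8.76, 1.52 and 3.5 TPM. It reached 1 TPM in 27 of the 32 libraries, and the 5 below were control replicate 3, heat replicates 1 and 3, and salt plus heat replicates 1 and 4. In salt it stood at 12.1, 15.55, 6.64 and 5.38 TPM and in salt plus heat at 0.8, 1.97, 6.93 and 0.42 TPM. In salt plus drought it stood at 7.57, 18.3, 17.2 and 4.86 TPM and with all 3 stresses at 5.95, 10.7, 11.7 and 8.36 TPM.

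Ordered by mean, salt plus drought came before salt for each copy, then drought and the triple stress in either order, then control, and the other 3 heated groups came last. Neighbours in this order overlapped throughout. Of the 28 pairs of groups, 0 were free of overlap for the 7A copy, 0 for the 7B copy and 3 for the 7D copy. These 3 pairs had heat alone below salt, below salt plus drought and below the triple stress. For the same pairs 6.28%, 11.8% and 15.6% of all gene models tested had all 4 libraries above all 4 heat libraries.

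Heat went with lower FT1, drought and salt with higher FT1, and no comparison passed the threshold in the TPM as deposited. For all 3 copies, heat gave a lower fitted level in 4 of 4 backgrounds of the other stresses, drought a higher level in 4 of 4, and salt a higher level in 4 of 4. The same libraries enter the counts of every stress and every copy, so these counts are not independent of one another. The comparisons were fitted with limma across all gene models and adjusted by the Benjamini-Hochberg method at a threshold of 0.05.

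Averaged over the 4 backgrounds, the 7B copy stood at 41.4 ± 30.5 TPM in the 16 heated libraries and at 66.9 ± 35.6 TPM in the 16 unheated ones (SD, n = 16), a log2 difference of -0.91 (SE 0.35, limma adjusted p = 0.0958). The 7D copy stood at 4.38 ± 3.89 TPM with heat and 9.55 ± 6.29 TPM without (log2 difference -1.04, SE 0.37, limma adjusted p = 0.0759). The 7A copy stood at 13.3 ± 8.06 TPM with heat and 22.2 ± 12.6 TPM without (log2 difference -0.76, SE 0.37, limma adjusted p = 0.206). The ranges of heated and unheated libraries overlapped for every copy, with heated libraries at up to 97.25 TPM and unheated ones down to 10.1 TPM for the 7B copy. Of the gene models tested, 9.77% were called for the averaged effect of heat, and 0 of the 3 copies were among them.

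The heat result of the 7B and 7D copies lay close to the threshold, and its call turned on the scaling of the libraries and other choices. Apart from omissions of 1 library, the averaged effect of heat passed in 1, 3 and 5 of 14 alternative settings for 7A, 7B and 7D. Some of these settings were chosen after the data were seen. After quantile normalisation the 7B and 7D copies passed the threshold (log2 differences of -0.98 and -1.13, limma adjusted p = 0.0426 and 0.036), as they did with median-of-ratios scaling (-1.02 and -1.12, limma adjusted p = 0.0331 and 0.0412). The 7A copy passed under neither, with limma adjusted p = 0.1245 and 0.117. Under these scalings 12.4% and 12.9% of all gene models were called for heat, against 9.77% in the TPM as deposited. Over all gene models the median log2 difference for heat was 0.08, of the opposite sign. Among single libraries, leaving out heat replicate 2 or salt plus heat replicate 3 brought the 7B copy past the threshold (limma adjusted p = 0.0328 and 0.0425), and leaving out control replicate 3 or salt plus heat replicate 3 did so for the 7D copy (limma adjusted p = 0.0192 and 0.0465). Without heat replicate 2, 8.15% of all gene models were called for heat. The 2 heated libraries were the highest of their groups for the copies named, and control replicate 3 was the lowest control. The direction in which the heat values moved was therefore fixed by these omissions, and the calls are a description.

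**Figure D2:**
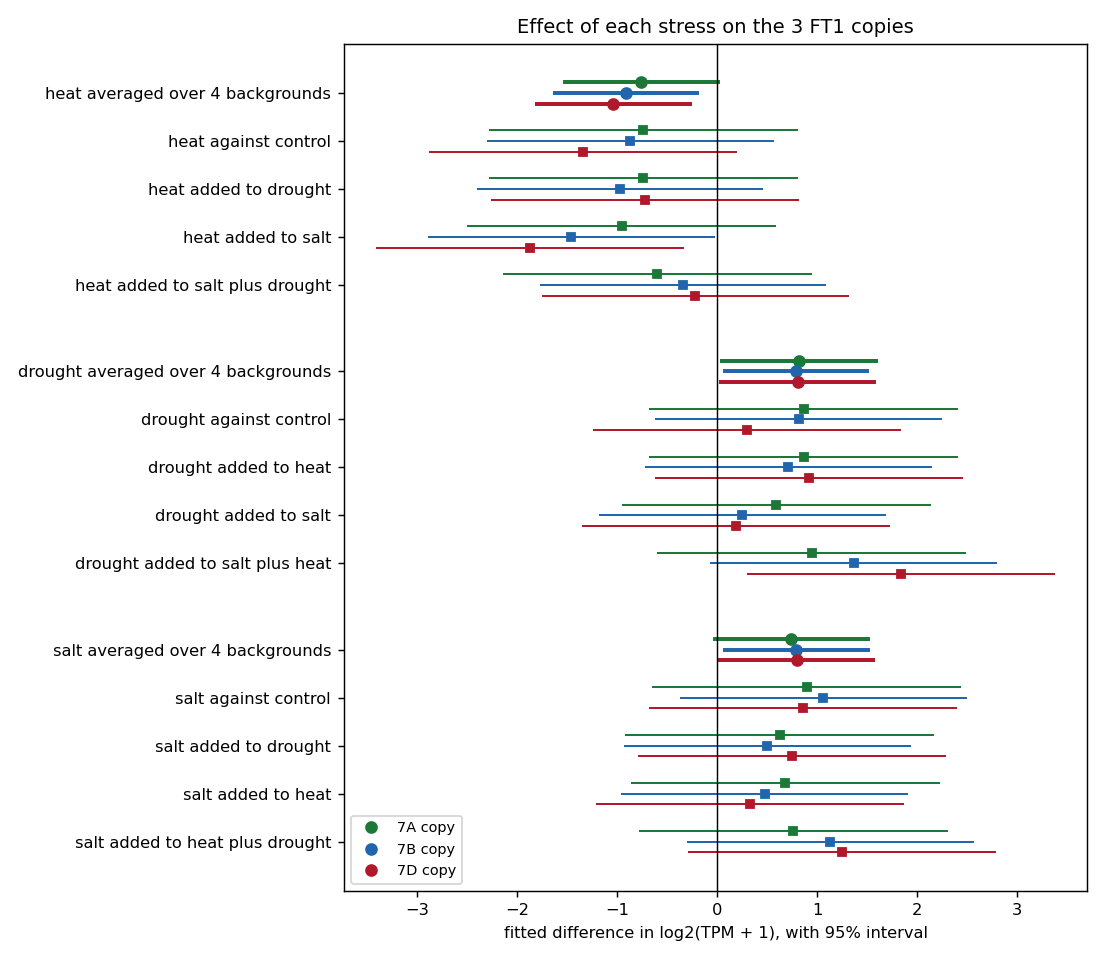
Fitted difference in log2(TPM + 1) with its 95% interval (horizontal axis) for heat, drought and salt, averaged over the 4 backgrounds (circles, thick lines) and in each background (squares, thin lines), by copy. All heat estimates lie below 0 and all drought and salt estimates above 0, and nearly all intervals of single backgrounds include 0.

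With drought the 7B copy stood at 63.7 ± 34.6 TPM against 44.6 ± 34.0 TPM without it (SD, n = 16; log2 difference 0.79, SE 0.35, limma adjusted p = 0.346). The 7A copy differed by 0.82 (SE 0.37, limma adjusted p = 0.372) and the 7D copy by 0.81 (SE 0.37, limma adjusted p = 0.378). Only 0.801% of gene models were called for the averaged effect of drought, and 0 of the 3 copies were. The 95% intervals of the drought differences ran from 0.05 to 1.58 for 7A, from 0.07 to 1.5 for 7B and from 0.04 to 1.57 for 7D before any adjustment. With a pseudocount of 0.1 the 7D copy differed by 1.40 with drought, by 1.3 with salt and by -1.43 with heat, and 0 of these passed the threshold.

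With salt the 7B copy stood at 66.7 ± 37.2 TPM against 41.6 ± 28.7 TPM without it (SD, n = 16; log2 difference 0.79, SE 0.35, limma adjusted p = 0.0777). The 7D copy differed by 0.80 (SE 0.37, limma adjusted p = 0.0974) and the 7A copy by 0.74 (SE 0.37, limma adjusted p = 0.122). For the averaged effect of salt 32.9% of gene models were called, and 0 of the 3 copies were. The median log2 difference of all gene models was 0.17 for salt. After quantile normalisation the FT1 differences were 0.59, 0.65 and 0.67 for 7A, 7B and 7D. Without heat replicate 2 the 7B copy passed the threshold (log2 difference 0.97, limma adjusted p = 0.0212), where 36.6% of all gene models were called for salt. That library was the highest of its group, which had no salt, so the rise of the salt value was fixed by the omission.

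The share of TPM in the 100 most abundant gene models was lower with salt and tended to be high where FT1 was low. Over the 32 libraries, which share scaling, its Pearson's r with the log2 summed level was -0.51 and Spearman's rho -0.35. After group means were removed, r was -0.68. Without heat replicate 1 and control replicate 3 the r over libraries was -0.26, so the value of -0.51 rests largely on these libraries. The share averaged 20.9% with salt and 26.7% without, and it was 33.5% in control replicate 3 and 36.1% and 32.2% in heat replicates 1 and 3, where the summed level of the 3 copies was 11.2, 5.16 and 8.55 TPM. Salt plus heat replicate 1 had a summed level of 13.0 TPM with a share of 17.3%, so low FT1 was also found at a low share. Drought replicate 3 combined a share of 33.3% with 41.1 TPM. With this share added to the model as a covariate, a choice made after the data were seen, the salt differences turned to -0.13, -0.19 and -0.28 for 7A, 7B and 7D (limma adjusted p = 0.899, 0.807 and 0.712). The heat differences became -0.98, -1.16 and -1.31 and passed the threshold (limma adjusted p = 0.0426, 0.00347 and 0.00181). The share of all gene models called for heat with the covariate is not given. The call of all 3 copies therefore has no background to be set against.

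Sets of libraries were also left out together. Without the 5 libraries with a share above 30% (control replicate 3, heat replicates 1 and 3, drought replicates 3 and 4), a limit set after the data were seen, the averaged heat differences were -0.73, -0.83 and -1.30 for 7A, 7B and 7D, and that of 7D passed the threshold (limma adjusted p = 0.107, 0.0762 and 0.00385). The drought differences were then 0.39, 0.44 and 0.67, and the salt differences -0.0045, 0.11 and -0.023, none past the threshold. Without control replicate 3 and heat replicates 1 and 3 alone, the differences were 0.16, 0.28 and 0.32 with salt, 0.23, 0.27 and 0.33 with drought, and -0.57, -0.66 and -0.96 with heat (limma adjusted p = 0.0493 for 7D with heat). These 3 libraries have the lowest summed FT1 of all 32 and none had salt or drought, so the direction in which the salt and drought values moved was fixed by the choice, and these values are a description. Drought replicate 3, whose share was higher than that of heat replicate 3, stayed in that set. None of the 5 libraries above 30% had salt, and each lay below the libraries kept in its group for every copy. The fall of the salt values without these 5 was therefore also fixed by the choice. Leaving out libraries in which FT1 was low also narrowed its spread within groups. The SE of the 7D heat difference was 0.37 with all libraries, 0.28 without the 5 and 0.33 without the 3. The calls of 7D with heat in both sets are thus a description, and the share of all gene models called there is not given. The part of the share in the results was not tested further.

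**Figure D3:**
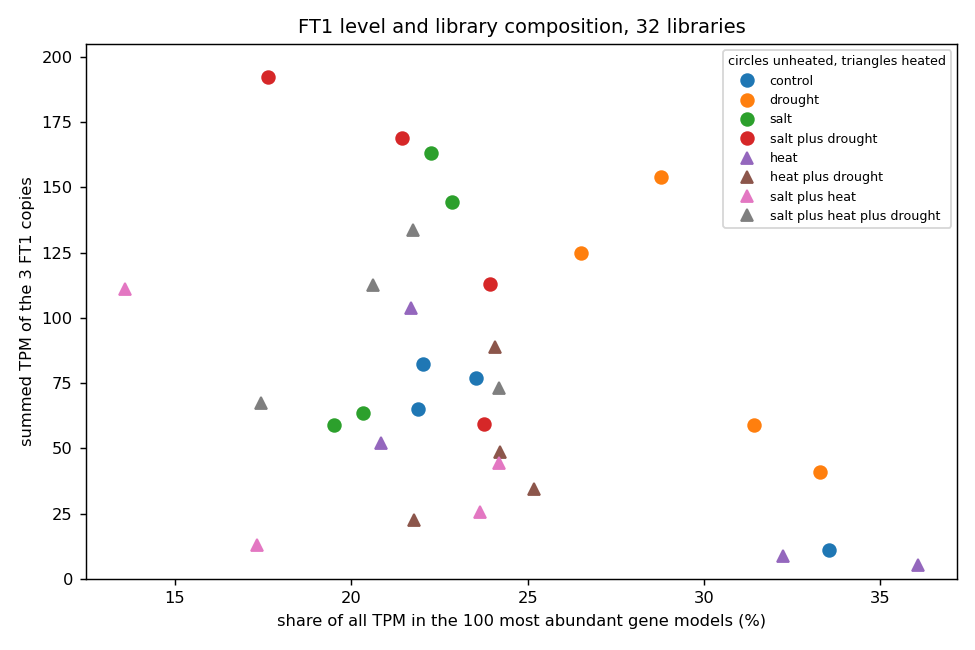
Summed TPM of the 3 FT1 copies (vertical axis) against the share of all TPM held by the 100 most abundant gene models (horizontal axis, %), with 1 point per library, coloured by group, circles for unheated and triangles for heated plants. The 3 libraries at 32.2% to 36.1% with the lowest summed levels are heat replicates 1 and 3 and control replicate 3.

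Against control, 0 of 21 fits passed the threshold, where between 1.21% (heat) and 13.6% (the triple stress) of all gene models did. The 7 comparisons share the same 4 control libraries. The share called was 1.33% for drought, 1.46% for salt, 2.58% for heat plus drought, 1.79% for salt plus drought and 9.51% for salt plus heat. The largest difference was that of salt plus drought for the 7A copy, 31.7 ± 13.0 TPM against 13.5 ± 8.43 TPM in control (SD, n = 4; log2 difference 1.49, 95% interval from -0.04 to 3.02, limma adjusted p = 0.321). For the same comparison the log2 difference was 1.31 for the 7B copy and 1.04 for the 7D copy (limma adjusted p = 0.346 and 0.491). Heat alone gave -0.74, -0.87 and -1.34 for 7A, 7B and 7D (limma adjusted p = 0.795, 0.714 and 0.534). For the 7D copy under heat the 95% interval ran from -2.87 to 0.18.

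These values rested in part on control replicate 3, which was the lowest control library for each copy, so that every difference from control moved down without it. For salt plus drought the differences became 0.70, 0.78 and 0.23 for 7A, 7B and 7D. For heat they became -1.53, -1.40 and -2.15 (limma adjusted p = 0.245, 0.282 and 0.104). For salt plus heat they moved from -0.06, -0.40 and -1.01 to -0.84, -0.93 and -1.82 (limma adjusted p = 0.566, 0.518 and 0.143 without the library). Heat and salt plus heat thus lay farther below control without this library, and salt plus drought less far above it. Drought moved from 0.86, 0.81 and 0.29 to 0.07, 0.28 and -0.51, and salt from 0.90, 1.06 and 0.85 to 0.11, 0.53 and 0.05. The triple stress moved from 0.89, 0.97 and 0.82 to 0.10, 0.44 and 0.016, and heat plus drought from 0.13, -0.16 and -0.43 to -0.66, -0.69 and -1.23. With or without the library, 0 of the 21 differences passed the threshold.

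Each stress was also compared within each background of the others. Adding heat to salt gave the largest of these differences, -1.87 for the 7D copy (2.53 ± 3.01 TPM against 9.93 ± 4.76 TPM, SD, n = 4; limma adjusted p = 0.196) and -1.46 for the 7B copy (34.6 ± 36.2 against 74.9 ± 35.1 TPM; limma adjusted p = 0.29). Of all gene models, 2.23% were called in this comparison. Adding drought to salt plus heat gave 1.83 for the 7D copy (9.19 ± 2.58 TPM against 2.53 ± 3.01 TPM; limma adjusted p = 0.315), where 0.246% of all gene models were called. Adding heat to salt plus drought gave -0.60, -0.34 and -0.22 for 7A, 7B and 7D, with 0.712% of gene models called. None of the 27 fits of this kind passed the threshold, and 3 had an unadjusted p under 0.05.

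Among the remaining steps, adding heat to drought gave -0.74, -0.97 and -0.72 for 7A, 7B and 7D, with 6.47% of all gene models called. Drought added to heat gave 0.87, 0.71 and 0.92 (0.694% called), and drought added to salt gave 0.59, 0.25 and 0.18 (0.00494% called). Salt added to drought gave 0.63, 0.50 and 0.74 (5.35% called), salt added to heat 0.68, 0.47 and 0.33 (11.1% called), and salt added to heat plus drought 0.76, 1.13 and 1.25 (0.735% called). The copies had the same sign in each of these steps.

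The interactions between stresses did not pass the threshold either. Of 12 fits, 0 passed and 0 had an unadjusted p under 0.05 (limma adjusted p from 0.6 to 1), while 0.359% of gene models were called for heat by drought, 0.0313% for salt by heat, 0.259% for salt by drought and 0.29% for the three-way term. The heat by drought estimate was 1.13 for the 7D copy (SE 0.75, 95% interval from -0.39 to 2.66), 0.51 for the 7B copy and 0.18 for the 7A copy. The three-way estimate was 1.22 for the 7B copy (SE 1.39, 95% interval from -1.63 to 4.06), 1.03 for the 7D copy and 0.35 for the 7A copy. Intervals this wide leave large interactions undecided.

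The spread within groups was large for all 3 copies. The SD between libraries of the same group was 1.13 for 7A, 1.05 for 7B and 1.13 for 7D on the log2(TPM + 1) scale, against a median of 0.30 over all gene models tested. The SD of the 7A copy exceeded that of 98.8% of the gene models tested, the 7B copy that of 98.4% and the 7D copy that of 98.8%. Among gene models with a mean within 0.5 log2 units of theirs, the shares were 99.1%, 98.6% and 98.8%.

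**Figure D4:**
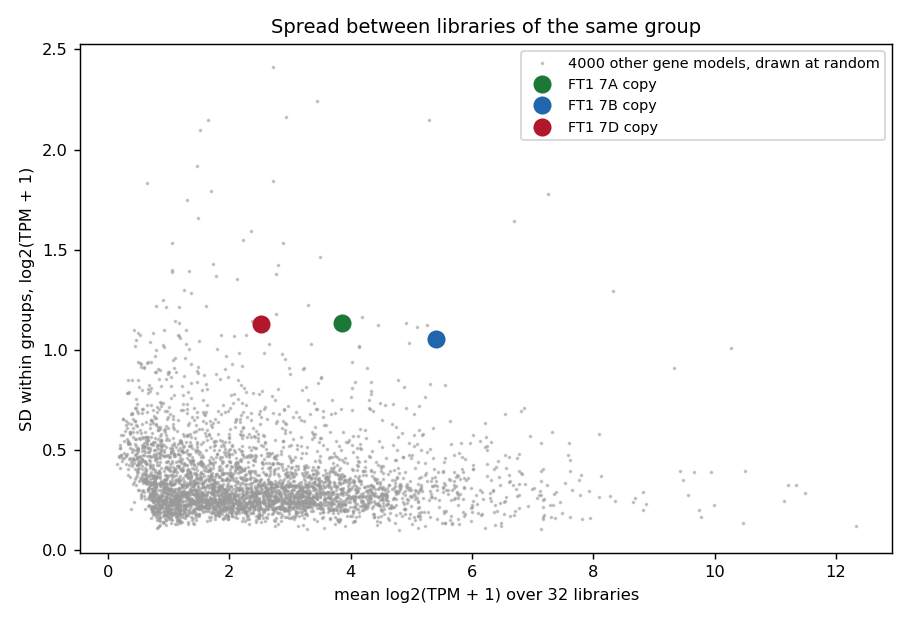
SD between libraries of the same group (vertical axis) against the mean over 32 libraries (horizontal axis), both in log2(TPM + 1), for the 3 FT1 copies and for 4000 other gene models drawn at random. The copies lie at 1.05 to 1.13, above nearly all gene models of a like mean.

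The copies varied together from library to library. After group means were removed, Pearson's r was 0.90 between 7A and 7B, 0.89 between 7B and 7D and 0.84 between 7A and 7D (n = 32 libraries, given as a description, since the copies share library, scaling and the division of reads between them). Each copy was also set against the 24 high confidence gene models tested that are nearest to it in identifier order. The within-group SD of these neighbours, gene by gene, ran from 0.15 to 0.742 around 7A, from 0.139 to 0.69 around 7B and from 0.137 to 0.655 around 7D, with medians of 0.308, 0.294 and 0.277. Of the 24 neighbours, 0 had a larger SD than the copy in each of the 3 places.

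The shares of the copies in the summed FT1 level were steadier than the level. The 7B copy held 69.8% ± 7.75 of the sum (SD, n = 32), the 7A copy 22.7% ± 6.80 and the 7D copy 7.45% ± 3.96. In salt plus drought the 7B share was 66.3% to 68.2% although the summed level ran from 59.4 to 192 TPM. The 7B share was highest in heat replicate 1, at 92.2%, and control replicate 3, at 89.8%, both with low sums, while heat replicate 3, with a sum of 8.55 TPM, had a share of 70.3%. The 7D share averaged 2.8% ± 3.0 under heat and 4.61% ± 2.15 under salt plus heat (SD, n = 4), and between 7.3% and 9.65% in the other groups. It rose with the log2 summed level, of which 7D is a part (Pearson's r = 0.67, and 0.585 with group means removed). Low 7D shares were also found without heat, at 0.45% in control replicate 3 and 4.04% and 2.88% in drought replicates 3 and 4.

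Whether the copies differed in their response to a stress was tested on the log2 ratio of each pair of copies. Of 9 such tests 0 passed after adjustment (permutation of the stress within backgrounds, 100000 resamples, two-sided, adjusted p = 0.98 for all 9). The largest difference was that between 7A and 7D with heat, whose mean log2 ratio was 1.49 in heated and 1.21 in unheated libraries (difference 0.28, permutation p = 0.237). With a pseudocount of 0.1 the differences of pairs with 7D were larger, up to 0.58 in size for 7B and 7D with drought (mean log2 ratios of 3.10 with and 3.68 without), and adjusted p ran from 0.32 to 0.755.

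**Figure D5:**
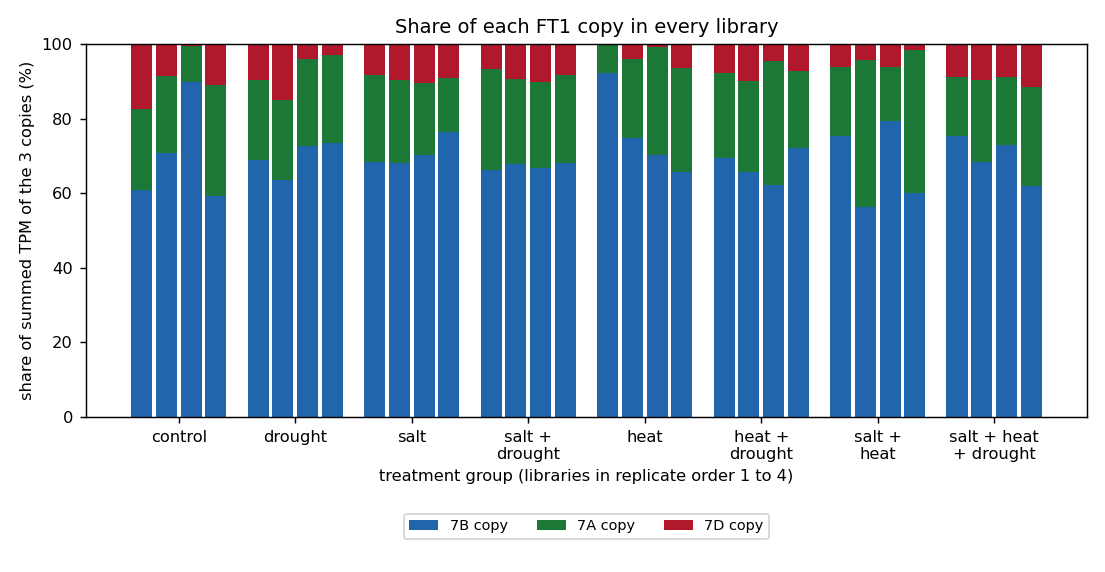
Share of the 7B (blue), 7A (green) and 7D (red) copies in the summed TPM of FT1 (vertical axis, %), with 1 bar per library in replicate order within each group. The 7B copy holds 56.3% to 92.2% in every library, and the 7D copy at most 17.5%.

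The gene models whose level was most like that of the 7B copy over the 32 libraries were looked up among 24672 with a mean of at least 5 TPM. TraesCS3D02G150400LC, a low confidence model on 3D with a mean of 214 TPM, had Pearson's r = 0.87 and Spearman's rho = 0.84 with the 7B copy. Next came TraesCS3D02G631700LC on 3D (r = 0.84, rho = 0.79, mean 295 TPM), TraesCS3A02G416300 on 3A (r = 0.84, rho = 0.74, mean 70.9 TPM), TraesCS2D02G557300 on 2D (r = 0.83, rho = 0.79, mean 22.02 TPM) and TraesCS3D02G517100 on 3D (r = 0.83, rho = 0.79, mean 335 TPM). Without heat replicates 1 and 3, the libraries farthest from the median of the 7B copy, these r were 0.80, 0.75, 0.75, 0.77 and 0.73. The other FT1 copies lay closer, with r = 0.93 each. In all, 16 of the 24672 had an r above 0.8, and the median r was 0.28. These gene models share libraries and scaling with FT1. All 5 named ones, like FT1, stood below their means in heat replicates 1 and 3 and control replicate 3. TraesCS2D02G557300 was at 2.93, 4.03 and 3.24 TPM there, and TraesCS3D02G150400LC at 17.8, 38.1 and 27.7 TPM. The 5 were chosen by their r with the 7B copy, so low values in these libraries follow in part from the choice.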

How the data were processed

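RNA of wheat flag leaves was measured in 32 libraries. The authors deposited TPM, which came from STAR alignments to IWGSC 1.1 and RSEM 1.3.3, per the series text. CASAVA and Trimmomatic are named without version in the submitters' processing notes. TPM keep no depth, so no counting interval is given. Groups and replicate numbers came from the source names, and 0 columns were left without a sample. TPM of 298774 transcripts were summed by gene model, filtered (at least 1 TPM in at least 4 libraries) and analysed as log2(TPM + 1), which understates changes of low values. limma 3.58.1 (R 4.3.3, trended eBayes, a mean for each of 8 groups, 24 residual degrees of freedom, two-sided) gave 23 comparisons, adjusted within each over 60684 gene models. The fit was tested on simulated data. Like gene models were the 5 with the highest Pearson's r. A RefSeq table of 155467 genes matched 0 identifiers, so no names, coordinates or sequences are given. The members, lists and tests were chosen with earlier results of these data known.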

Additional observations from a re-analysis of the deposited data

Results flagged for a closer look

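The 7A copy in control replicate 3 stood far from the other controls. It was at 1.09 TPM, against 15.85 to 19.5 TPM in the others, and its gap to the nearest of them was 0.914 of the range of the group on the log2 scale, above Dixon's critical value at 95% for 4 samples. Among 24 combinations of copy and group, 1 was past that value, and chance alone gives about 1 in 20. The 7B and 7D copies were also lowest in this library among the controls, with 10.1 and 0.05 TPM.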

How the results depend on the processing

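Each averaged stress effect and each comparison with control was recomputed with other pseudocounts, filters, scalings, blocks and sets of libraries. In every setting in which they were refitted, 0 of 21 comparisons with control passed the threshold. The covariate and the limit of 30% on the share, given below, were fitted for averaged effects only. The averaged effect of heat came past it with quantile normalisation (-0.98 for 7B, -1.13 for 7D), median-of-ratios scaling (-1.02 and -1.12), for 7D without control replicate 3 and heat replicates 1 and 3 together (-0.96, adjusted p = 0.0493), the libraries of lowest summed FT1. In alternatives added after seeing the data, it did so with the share of the 100 most abundant gene models as a covariate (-0.98, -1.16 and -1.31 for 7A, 7B and 7D) and, for 7D, without the 5 libraries with a share above 30% (-1.30). Other settings moved heat away from the threshold. With title numbers as a block its limma adjusted p was 0.41, 0.269 and 0.236 for 7A, 7B and 7D. With no minimum TPM it was 0.344, 0.182 and 0.149. The averaged effect of salt turned to -0.13, -0.19 and -0.28 with the covariate, which was itself lower with salt. Without the 5 libraries it turned to -0.0045 for 7A and -0.023 for 7D. That fall was fixed by the choice, since none of the 5 had salt and each lay below the libraries kept in its group. The part of the share in these values was not tested. Other estimates changed sign without passing the threshold. With a pseudocount of 0.1, salt plus heat against control gave 0.021 for 7A. With title numbers as a block, heat plus drought gave 0.29 for 7B. Without the 3 libraries named above, heat against control gave 0.023 for 7A and 0.12 for 7B, heat plus drought -0.66 for 7A and drought -0.51 for 7D.

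Leaving out 1 library at a time, the averaged effect of heat ran from -1.08 to -0.77 for 7B and from -1.24 to -0.91 for 7D, and that of salt from 0.64 to 0.97 for 7B. Against control, drought ran from -0.51 to 0.78 for 7D, heat plus drought from -0.66 to 0.44, from -0.69 to 0.12 and from -1.23 to 0.058 for 7A, 7B and 7D, and salt plus heat from -0.84 to 0.48 for 7A and from -0.999 to 0.014 for 7B. The heat by drought interaction of 7A ran from -0.19 to 0.57.

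Deviations from group means of libraries with the same replicate number had a median correlation of 0.00544 over 112 pairs, against -0.00147 for other pairs across groups. Of the 32 libraries, 12 correlated best with their own number. For the 7B copy, replicate 2 was the highest library in 5 of 8 groups and the lowest in 0. These values do not settle whether the numbers pair samples, and the main fit did not use them. With the replicate block the averaged effect of heat on 7D was -1.04 (SE 0.35 against 0.37 without the block, limma adjusted p = 0.058), and 0 copies passed the threshold. Each copy has 1 transcript, so using first transcripts left the levels as they were. Depth is unknown, so values of 7D near 0 cannot be given a limit.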
